A study of Mus musculus with 6 samples.

Results

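The immediate early genes described here in E12.5 mouse lung were listed by symbol, as Fos, Fosb, Fosl2, Jun, Junb, Jund, Atf3, Egr1, Ier2 and Dusp1. Of these 10, 9 had values in all 6 libraries, among 14162 genes in all, and Fosb was not analysed here. RNA-seq compared 3 libraries of ShhCre-Dnmt1KO lungs, here called Dnmt1KO, with 3 libraries of wild-type littermate lungs, here called WT. In Dnmt1KO, Cre recombinase expressed from the Shh locus deletes Dnmt1, the maintenance DNA methyltransferase, in the endoderm that forms the airway epithelium, while the mesenchyme, vessels and blood cells of the same lungs lie outside that lineage. The labels name Cre for the Dnmt1KO animals only, and they leave unsaid if a library held 1 embryo or a pool, so the tests measure the spread between these libraries.

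Immediate early genes are transcribed within minutes of a growth factor, mechanical or stress signal, without the need for new protein. MAP kinases and the serum response factor SRF drive them, and their mRNAs are short-lived. FOS proteins pair with JUN proteins to form the transcription factor AP-1, JUN proteins also pair with each other, and ATF3 is a related stress-induced factor of the same leucine zipper class. EGR1 is a zinc finger transcription factor, IER2 a nuclear protein induced with them, and DUSP1 a phosphatase that switches MAP kinases off. In tissues they are also known to be induced by dissection.

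Depths ran from 18192629 reads in Dnmt1KO replicate 1 to 25597662 in WT replicate 1, as whole reads recovered from the deposited log2 values. Dnmt1 stood at 15.57, 15.40 and 15.31 in Dnmt1KO and at 15.72, 15.74 and 15.76 in WT on the log2 scale, with no overlap between the groups (limma adjusted p = 0.507). Dnmt1KO replicate 1 had 3 reads over 4 genes of the Y chromosome and the other 5 libraries had between 4155 and 5207. Male RNA was thus present in those 5 and all but absent from Dnmt1KO replicate 1. Of the lung epithelial markers, Nkx2-1 and Epcam had 2170 reads or more in every library, Foxa2 461 or more and Sftpc 316 or more. Sox9, which was also listed as a cartilage marker, had 1271 or more. Dnmt1KO replicate 2 stood apart in heart muscle markers, of which 6 of 7 had values, with a summed log2 level of 15.35 against 11.64 to 13.12 in the other 5 libraries. In these bulk samples, fewer cells of a type and less RNA per cell cannot be told apart.

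The upstream sequence of Fos and of Jun is printed because these were the members with the smallest unadjusted p, one with a higher mean and one with a lower mean in Dnmt1KO. Each run holds the 250 bases before the RefSeq start, 5′ to 3′ on the gene's strand, on GRCm38.p6, a later build than the mm9 named in the submitters' processing notes. Fos is at chr12:85473640-85473889 on the plus strand and Jun at chr4:95052223-95052472 on the minus strand. Capitals mark TGACG, the core of the cyclic AMP response element, the octamer TGACATCA, a variant AP-1 site, and TATAAA.
Fos: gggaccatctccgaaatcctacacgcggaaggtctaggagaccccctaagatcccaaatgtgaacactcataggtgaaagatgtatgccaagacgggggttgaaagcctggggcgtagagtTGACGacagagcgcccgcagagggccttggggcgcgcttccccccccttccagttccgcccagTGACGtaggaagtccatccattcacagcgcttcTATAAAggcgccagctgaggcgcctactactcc
Jun: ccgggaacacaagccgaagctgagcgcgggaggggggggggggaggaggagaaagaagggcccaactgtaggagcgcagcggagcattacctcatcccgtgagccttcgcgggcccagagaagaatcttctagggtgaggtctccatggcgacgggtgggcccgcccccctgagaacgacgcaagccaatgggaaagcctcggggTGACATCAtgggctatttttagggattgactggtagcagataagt

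Of the 10 members, 8 had a RefSeq promoter in the table used, and Egr1 and Ier2 did not. The Fos window held TGACG at -129 and -66 and TATAAA at -33, counted from the start. The Jun window held TGACATCA at -45 and no TGACG on either strand. Searched on both strands, TGACG was in 5 of the 8 windows, those of Fos, Fosb, Junb, Atf3 and Dusp1, against 17.8% of 32841 promoter windows of the same length. Dusp1 alone of the 8 held the full palindrome TGACGTCA, at -143, which also counts as 2 of its 3 TGACG matches, against 1.55% of all windows. TGACATCA was in 2.93% of all windows. These matches describe letters only.

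The windows also differed in CpG, the dinucleotide that DNMT1 methylates. Dusp1 held 28 CpG, Atf3 24, Fosl2 23, Junb 20, Fosb 19, and Fos and Jun 15 each, against a median of 6 over all windows. Jund held 3. The RefSeq start is also the GENCODE start for Fos and Jun, but it lies 1210 bases upstream of it for Jund and 30 for Junb. For Dusp1, Atf3 and Fosl2 it lies downstream, at offsets of -53656, -34706 and -671 bases. The windows, with their motif and CpG counts, describe the RefSeq start only. Methylation was not measured in these libraries.

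None of the 9 measured members passed the test between Dnmt1KO and WT. The test was limma with Benjamini-Hochberg adjustment over all genes, at an adjusted p of 0.05, which called 41 of 14162 genes, or 0.29%. At an unadjusted p of 0.05, 2 of the 9 passed, Fos and Jun, in opposite directions, against 4.52% of all genes. Voom on the recovered reads called 0 of the 9, against 0.226% of all genes, and put 2 at an unadjusted p under 0.05, against 4.29%. Of the 9 differences 6 were positive, against 50% of all genes, and their median was 0.041 on the log2 scale against -5.88e-05 over all genes. The members thus did not share a direction.

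**Figure D1:**
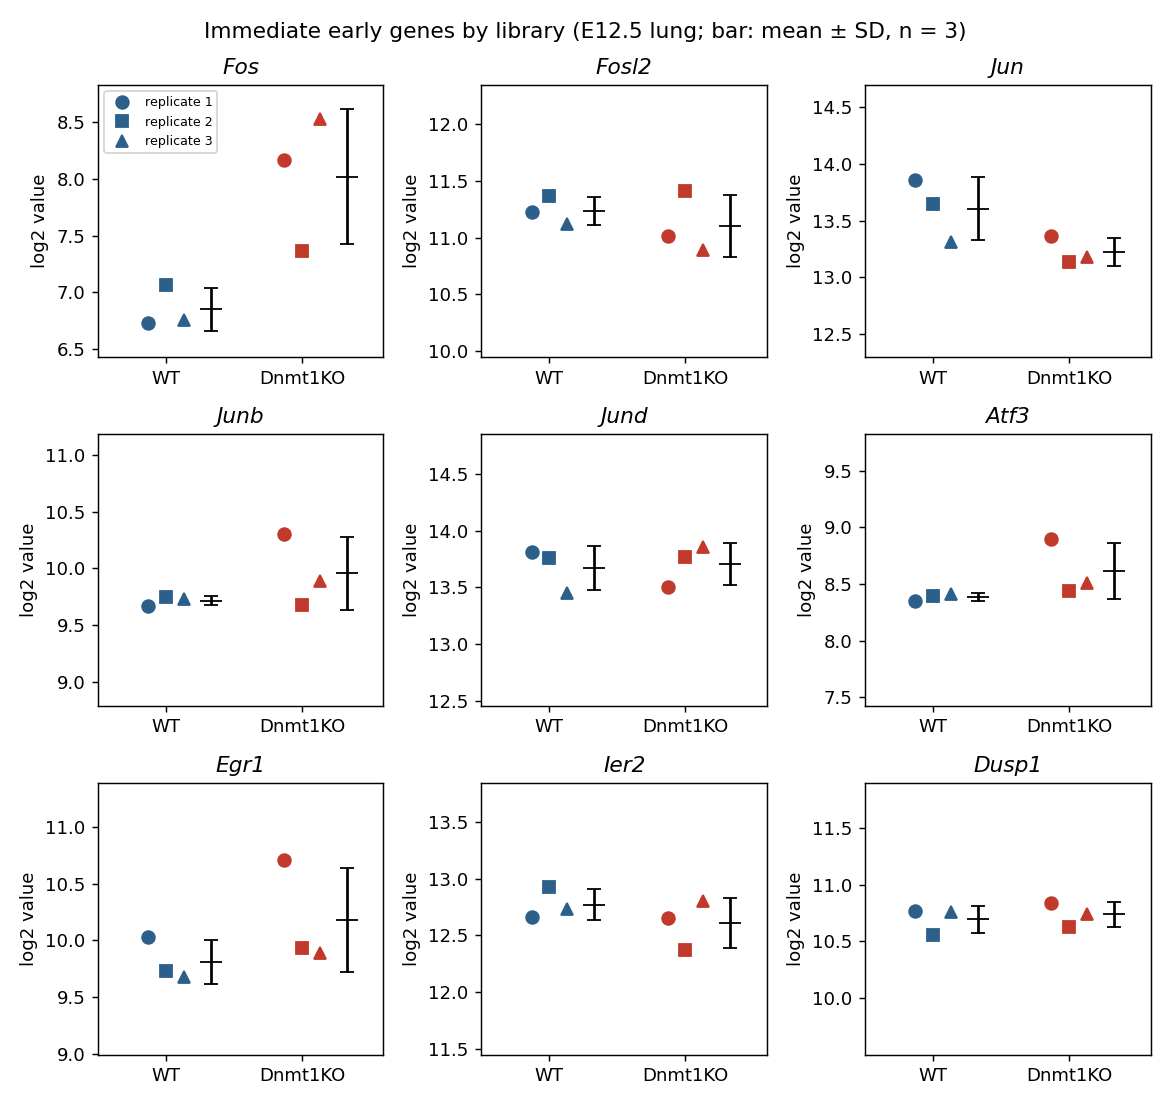
Deposited log2 value (y axis) of each of the 9 measured members in the 3 WT (blue) and 3 Dnmt1KO (red) libraries, with the mean ± SD of each group in black and the same axis span in every panel. The groups are apart in Fos and Atf3, and Dnmt1KO replicate 1 is the highest library for Junb, Atf3, Egr1 and Dusp1.

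Among the FOS genes, Fos, the founding partner of JUN in AP-1, showed the widest difference of the 9 members. Its log2 values were 8.17, 7.36 and 8.53 in Dnmt1KO replicates 1, 2 and 3 and 6.73, 7.07 and 6.75 in WT replicates 1, 2 and 3. All 3 Dnmt1KO libraries lay above all 3 WT libraries, with replicate 2 nearest to them. The level was 8.02 ± 0.60 (SD, n = 3) in Dnmt1KO against 6.85 ± 0.19 (SD, n = 3) in WT, a log2 fold change of 1.17 ± 0.35 (SE).

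As a fold, Fos was 2.25 times the WT level with an unadjusted 95% interval of 1.29 to 3.94. The limma adjusted p was 0.585 (unadjusted 0.00984), and the exact permutation p, two-sided, was 0.1, which is the smallest possible for 3 against 3 libraries. Fos rested on few reads, with 51, 32 and 76 in Dnmt1KO and 26, 26 and 24 in WT. The ratio of scaled reads was 2.42, with an exact Clopper-Pearson 95% counting interval of 1.83 to 3.23, which covers counting error only. Leaving out each library in turn gave log2 fold changes from 0.92, without Dnmt1KO replicate 3, to 1.5, without Dnmt1KO replicate 2, with adjusted p from 0.271 to 1. Over all 14 alternatives that gave Fos a value the adjusted p had the same range.

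Fosl2, which encodes the FOS relative FRA-2, had log2 values of 11.01, 11.41 and 10.89 in Dnmt1KO and 11.23, 11.37 and 11.12 in WT. Its highest and its lowest library were both Dnmt1KO, so the groups overlapped throughout. The difference of -0.14 ± 0.15 (SE, limma adjusted p = 1) had a 95% interval of -0.48 to 0.21. It was -0.029 without Dnmt1KO replicate 3, -0.072 without WT replicate 2 and -0.29 without Dnmt1KO replicate 2.

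Among the JUN genes, Jun, the main JUN partner in AP-1, stood at 13.37, 13.13 and 13.18 in Dnmt1KO and at 13.86, 13.65 and 13.31 in WT. All 3 Dnmt1KO libraries lay below the WT mean, but Dnmt1KO replicate 1 was above WT replicate 3, so the groups overlapped. The difference was -0.38 ± 0.14 (SE), or 0.767 times the WT level, with a 95% interval of 0.614 to 0.958 (limma adjusted p = 0.857, unadjusted 0.0248). It ran from -0.53 without WT replicate 3 to -0.25 without WT replicate 1. Jun had from 1773 to 3726 reads per library.

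Junb, a JUN protein that often acts against JUN, stood at 10.31, 9.68 and 9.89 in Dnmt1KO and at 9.67, 9.75 and 9.73 in WT. Only Dnmt1KO replicates 1 and 3 were above the WT libraries, and the difference of 0.24 ± 0.18 (SE, limma adjusted p = 1) became 0.064 without replicate 1. Jund, the JUN gene that is expressed steadily in most cells, stood at 13.50, 13.77 and 13.86 in Dnmt1KO and at 13.81, 13.75 and 13.45 in WT. The difference for Jund was 0.035 ± 0.13 (SE, limma adjusted p = 1), with a 95% interval of -0.26 to 0.33.

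Because Jun was lower in mean and Jund was not, the log2 value of Jun minus that of Jund was -0.13, -0.63 and -0.68 in Dnmt1KO and 0.049, -0.11 and -0.14 in WT. The values of Dnmt1KO replicate 1 and WT replicate 3 are close, and those of Dnmt1KO replicates 2 and 3 are the lowest. This contrast of a pair of genes was chosen after their values were seen and was not tested.

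Atf3, which is induced by many stresses, stood at 8.90, 8.44 and 8.51 in Dnmt1KO and at 8.35, 8.39 and 8.42 in WT. The groups did not overlap, but Dnmt1KO replicate 2 was only just above WT replicate 3, at 68 and 77 reads before scaling. The difference of 0.23 ± 0.21 (SE, limma adjusted p = 1) became 0.09 without Dnmt1KO replicate 1. Ppp1r15a, a gene of the integrated stress response as Atf3 is, stood at 11.01, 10.70 and 11.19 in Dnmt1KO and at 10.71, 10.69 and 10.77 in WT (difference 0.25 ± 0.14, limma adjusted p = 1).

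Groups without overlap, Fos and Atf3, thus made 2 of the 9 members higher and 0 lower in Dnmt1KO. Over all genes this was so for 4.79% as higher and 3.99% as lower. These counts are small, and members read from the same libraries are not independent.

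Egr1, the zinc finger factor, stood at 10.71, 9.94 and 9.89 in Dnmt1KO and at 10.03, 9.73 and 9.67 in WT. Dnmt1KO replicate 1 was the highest library, and WT replicate 1 was above the other Dnmt1KO libraries. The difference was 0.37 ± 0.23 (SE, limma adjusted p = 1) with all libraries and 0.10 without Dnmt1KO replicate 1. Its corepressors NAB1 and NAB2 bind EGR proteins and limit their activity. Nab1 had a difference of 0.20 ± 0.09 and Nab2 of -0.058 ± 0.13 (limma adjusted p = 1 for each).

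Ier2 stood at 12.65, 12.37 and 12.80 in Dnmt1KO and at 12.66, 12.93 and 12.73 in WT, a difference of -0.16 ± 0.13 (SE, limma adjusted p = 1). Dnmt1KO replicate 2 lay lowest, and the difference was -0.044 without it, -0.086 without WT replicate 2 and -0.26 without Dnmt1KO replicate 3. Dusp1 stood at 10.84, 10.63 and 10.74 in Dnmt1KO and at 10.77, 10.56 and 10.76 in WT. Its range over the 6 libraries, 0.28, was the narrowest of the 9, against 1.80 for Fos and 1.04 for Egr1. The difference of 0.041 ± 0.12 (limma adjusted p = 1) had a 95% interval of 0.851 to 1.24 as a fold.

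**Figure D2:**
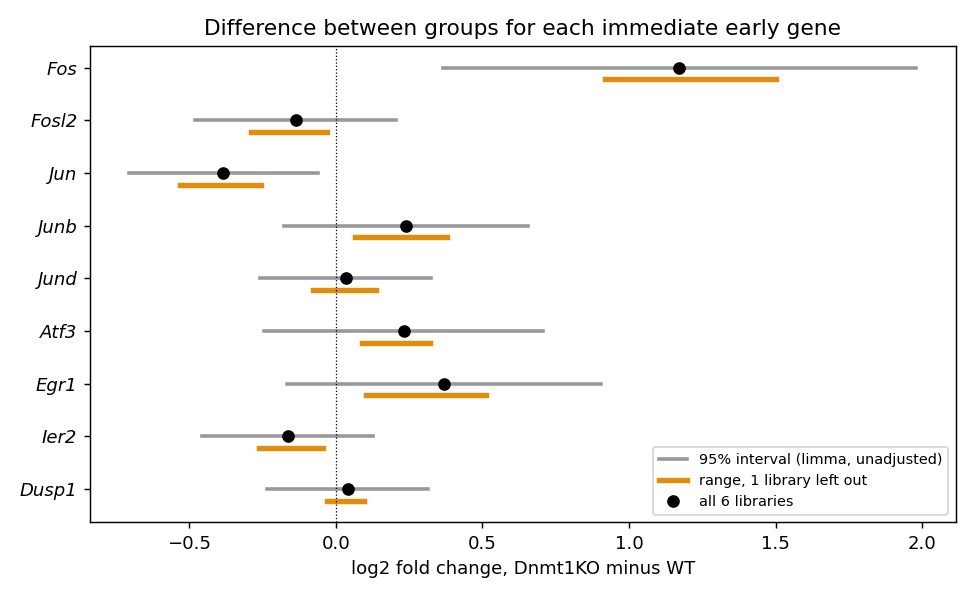
Log2 fold change of Dnmt1KO against WT (x axis) for the 9 members, with the unadjusted 95% interval of limma in grey and the range as each library was left out in orange. The intervals of Fos (0.37 to 1.98) and Jun (-0.70 to -0.062) lie on opposite sides of 0, and the other 7 include it.

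Library by library, the members were spread unevenly. Dnmt1KO replicate 1 was the highest of the 6 libraries for 4 of the 9 members, Junb, Atf3, Egr1 and Dusp1, while it was the highest for 18.1% of all genes. It was above all 3 WT libraries for 5 of the 9, against 24.7% of all genes, and below all 3 for 2, against 23.8%. Dnmt1KO replicate 2 was above all WT libraries for 3 members and below all for 2, against 21.1% and 21.8% of all genes. For Dnmt1KO replicate 3 these were 4 and 2, against 25.3% and 24.8%. Without replicate 1, the library that also all but lacked male RNA, 0 of the 9 members passed, as with all 6 libraries. Fos was then at 1.1 (limma adjusted p = 1), against 1.17 with all 6, 1.5 without Dnmt1KO replicate 2 and 0.92 without Dnmt1KO replicate 3. The part of sex in the values of Dnmt1KO replicate 1 was not tested.

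Levels were compared between genes as RPKM, the recovered reads per kilobase of exon at equal library depth, with exon lengths from GENCODE M21. Jund was the most abundant member, at 79.2 ± 9.87 RPKM (SD, n = 3) in Dnmt1KO and 76.6 ± 9.66 (SD, n = 3) in WT. Ier2 followed at 40.6 ± 6.10 and 44.7 ± 3.93, and Jun at 29.6 ± 2.62 and 38.5 ± 7.23. Then came a step of 6.84 times in the mean to Dusp1, at 5.07 ± 0.38 and 4.88 ± 0.44.

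The least abundant member was Fos, at 1.13 ± 0.43 in Dnmt1KO and 0.47 ± 0.06 in WT. Between Dusp1 and Fos came Junb, Fosl2, Egr1 and Atf3, with means over the 6 libraries of 3.92, 2.34, 2.29 and 1.65. Ranges over the libraries did not overlap between Jund and Ier2, between Jun and Dusp1, or between Junb and Fosl2. They overlapped for the other 5 neighbours in the order, of which Fosl2 and Egr1 changed places in 2 of 6 libraries and Ier2 and Jun in 1. Egr1, Atf3 and Fos kept their order in all 6.

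**Figure D3:**
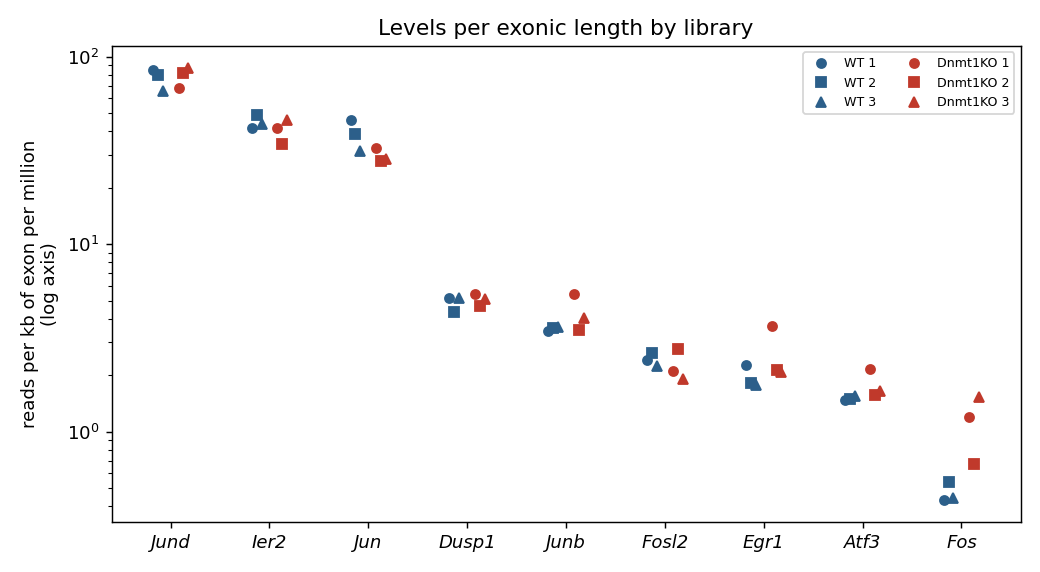
Level in RPKM of the recovered reads (log y axis) for the 9 members in each WT (blue) and Dnmt1KO (red) library, ordered by the mean. Jund, Ier2 and Jun lie between 27.6 and 87.4 in every library, and no other member exceeds 5.45.

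Of the summed level per kilobase of the 5 measured FOS and JUN genes, Jund held 61.9% to 70.8% and Jun 23.1% to 33.5% in the single libraries. Fos held 1.09%, 0.58% and 1.24% in Dnmt1KO and 0.317%, 0.43% and 0.427% in WT. The FOS partners were thus a small share of this RNA in all libraries of both groups. These shares use the same reads as the differences above and were not tested again.

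The strand of the library is not given in the sources used here, and some members overlap other genes in GENCODE. Jun and Jund each overlap an antisense RNA, Atf3 a small RNA gene on the other strand, and Junb overlaps Prdx2 on the other strand. Dusp1 overlaps Ergic1 and a pseudogene on the other strand, and a pseudogene and an intronic RNA on its own. Prdx2 had 6474 to 9782 reads and Ergic1 3741 to 5590, against at most 226 for Junb and 436 for Dusp1. The values of these 5 members are uncertain, since reads of an overlapping gene may be counted in them.

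Of 43 other primary response genes 37 had values, and 0 passed limma's test in either direction. By limma 3 were at an unadjusted p under 0.05, against 4.52% of all genes. Voom called 0, with 4 at that unadjusted p, against 4.29% of all genes. Their median difference was 0.0069, with 19 positive and 18 negative. The 4 with the smallest p did not pass.

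Rhob, a small GTPase gene of the actin cytoskeleton, stood at 13.31, 13.46 and 13.32 in Dnmt1KO and at 13.88, 13.71 and 13.56 in WT (difference -0.35 ± 0.10, limma adjusted p = 0.507). Cebpb, a leucine zipper factor of inflammation and metabolism, stood at 11.46, 11.7 and 11.7 against 10.96, 11.40 and 11.23 (0.42 ± 0.13, adjusted p = 0.67). Id1, an inhibitor of bHLH factors and a BMP target, had a difference of 0.27 ± 0.09 (adjusted p = 0.739), and Ier3, an apoptosis regulator, one of 0.52 ± 0.24 (adjusted p = 1). In each of these 4 the groups did not overlap, but they were picked by p. Over the 37 genes, 5 were higher and 3 lower without overlap, against 4.79% and 3.99% of all genes.

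The kinases and factors that induce the members were measured in full. Of 28 genes, limma called 0 and none was at an unadjusted p under 0.05, by limma or by voom, and the median difference was -0.041. The smallest p belonged to Map2k6, a p38 kinase activator (-0.17 ± 0.08), Mapkapk2, a p38 substrate (-0.15 ± 0.07), Srf (-0.14 ± 0.07) and Map2k1, the ERK activator MEK1 (-0.14 ± 0.08), each with limma adjusted p = 1. Srf stood at 14.16, 14.08 and 14.17 in Dnmt1KO and at 14.26, 14.25 and 14.34 in WT. The Dnmt1KO libraries were below the WT libraries in each of these 4, which are all of the 28 genes without overlap, against 3.99% of all genes as lower and 4.79% as higher.

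Of 9 other MAP kinase phosphatases 0 passed. At an unadjusted p under 0.05 there were 2 by limma and 2 by voom, against 4.52% and 4.29% of all genes. Without overlap between the groups 1 was higher and 2 were lower, against 4.79% and 3.99% of all genes. Dusp16, a phosphatase of JNK and p38, had a difference of -0.31 ± 0.10 (limma adjusted p = 0.635), Dusp9, an ERK phosphatase, one of -0.25 ± 0.11 and Dusp5, a nuclear ERK phosphatase, one of 0.34 ± 0.16 (adjusted p = 1 for both). For Dusp10 it was 0.27 ± 0.15 (adjusted p = 1). Without WT replicate 1 it was 0.19 for Dusp5 and 0.14 for Dusp10. Of 9 other leucine zipper partners of FOS and JUN, 7 had values and 0 passed, by limma or voom at either threshold. Among them Atf2, which pairs with JUN, was at 0.11 ± 0.08, Batf3 at -0.24 ± 0.28, Maf at 0.091 ± 0.14 and Mafg at 0.066 ± 0.11 (limma adjusted p = 1 for each). As each library was left out, Batf3 ran from -0.49 without Dnmt1KO replicate 3 to -0.039 without WT replicate 2.

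**Figure D4:**
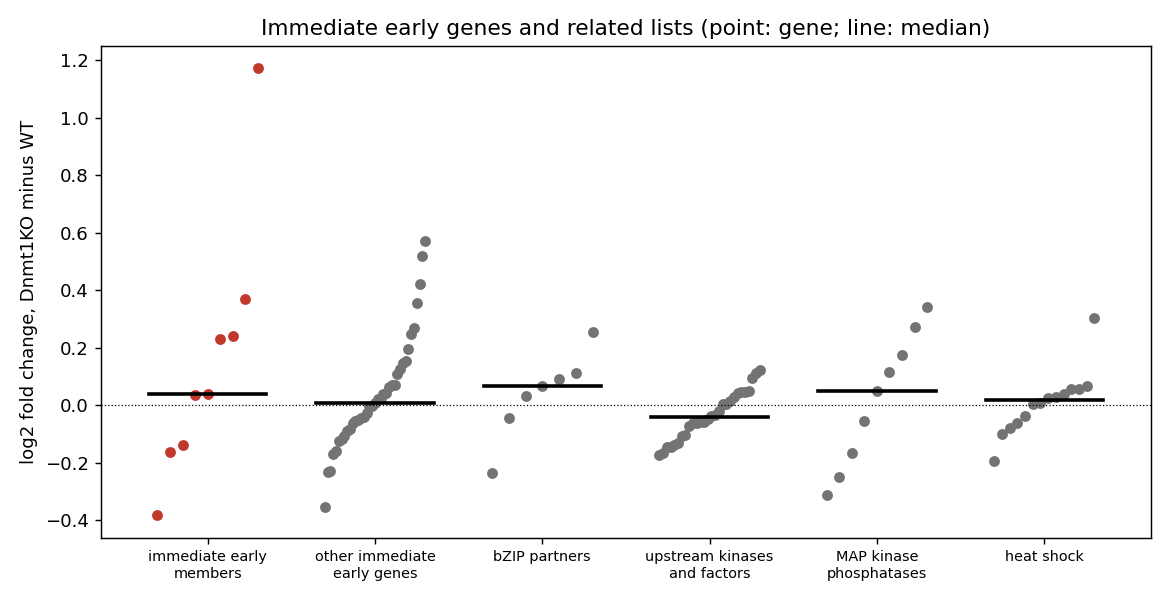
Log2 fold change of Dnmt1KO against WT (y axis) for every measured gene of 6 lists, with the list's median as a black line. Fos, at 1.17, is the highest point of all 6 lists, and the medians lie between -0.041 and 0.066.

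Heat shock genes, which respond to stress through another factor, were read beside the members. Of 14 genes 0 passed limma's test and none was at an unadjusted p under 0.05, by limma or voom, with a median difference of 0.017. The 4 with the smallest p were Cryab (0.30 ± 0.31), Hsp90ab1 (0.058 ± 0.08), Hspd1 (0.056 ± 0.08) and Dnaja1 (-0.062 ± 0.11), each with limma adjusted p = 1. Single libraries differed more. Hspa1b, an inducible HSP70 gene with a near-identical copy in Hspa1a, had 430 reads in Dnmt1KO replicate 2 and 659 in WT replicate 1, against 99 to 129 in the other 4. Among the members, Dnmt1KO replicate 2 was the highest of the 6 libraries for Fosl2 and the lowest for Jun and Ier2. WT replicate 1 was the highest for Jun and the lowest for Fos, Junb and Atf3.

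Markers of other cell types were summed per library and set beside Fos. The 11 erythroid markers all had values and all 11 had a positive difference, with a median of 0.51. Of these 0 were called and 2 were at an unadjusted p under 0.05 by limma, against 4.52% of all genes. Their summed log2 level was 17.94, 17.63 and 18.42 in Dnmt1KO replicates 1, 2 and 3 and 17.18, 17.77 and 17.69 in WT. Fos and this sum were both highest in Dnmt1KO replicate 3, followed by replicate 1, and lowest in WT replicate 1, but the erythroid groups overlapped. The Fos values of WT replicates 1 and 3 were close, at 6.73 and 6.75. No erythroid marker was at 0 in any library.

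Of 7 liver markers 4 had values, all 4 higher in the mean with a median of 2.48. Of these 0 were called and 4 were at an unadjusted p under 0.05 by limma, against 4.52% of all genes. Their summed level was 10.57 to 11.51 in Dnmt1KO and 8.27 to 9.11 in WT, with none at 0. Of 6 neutrophil markers 5 had values, all 5 lower in the mean with a median of -2.31. Of these 0 were called and 4 were at an unadjusted p under 0.05 by limma, against the same 4.52%. Their sums were 8.32 to 10.20 in Dnmt1KO and 9.99 to 10.55 in WT, and 1 gene, Lcn2, was at 0 reads in 1 library. The 8 lung epithelium markers summed to 16.15, 15.81 and 16.31 in Dnmt1KO and to 15.99, 16.19 and 16.03 in WT. Of these 8, 5 were higher and 3 lower in the mean, with 0 called. By limma 2 were at an unadjusted p under 0.05, against 4.52% of all genes. These were Sftpc (1.585 ± 0.25, limma adjusted p = 0.0585) and, in the other direction, Foxa2 (-0.42 ± 0.18). Within each group, Fos, the erythroid sum and the epithelial sum put the 3 libraries in the same order. No other marker list followed this order in both groups, and the erythroid and epithelial lists were picked after their values were seen. In WT, replicates 1 and 3 were close in Fos (log2 6.73 and 6.75, 26 and 24 reads) and in the epithelial sum. The order of these WT libraries is thus uncertain. The sums for mesenchyme, macrophages and heart muscle were highest in Dnmt1KO replicate 2, the Dnmt1KO library with the lowest Fos. The neural sum was highest in WT replicate 1, at 13.52, with 12.89 in Dnmt1KO replicate 2. The lists for mesenchyme, endothelium, macrophages, neural cells and cartilage had 0 genes called and medians from -0.054 to 0.054. At an unadjusted p under 0.05 by limma, mesenchyme and cartilage had 1 gene each, of 8 and 4 measured. Single differences ran from -0.38 to 0.71 in mesenchyme and from -0.18 to 4.41 in cartilage, where 1 gene had 0 reads in at least 1 library. The heart muscle list had 0 called, with 5 of 6 positive and a median of 0.93. The part of cell composition in the Fos values was not tested.

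**Figure D5:**
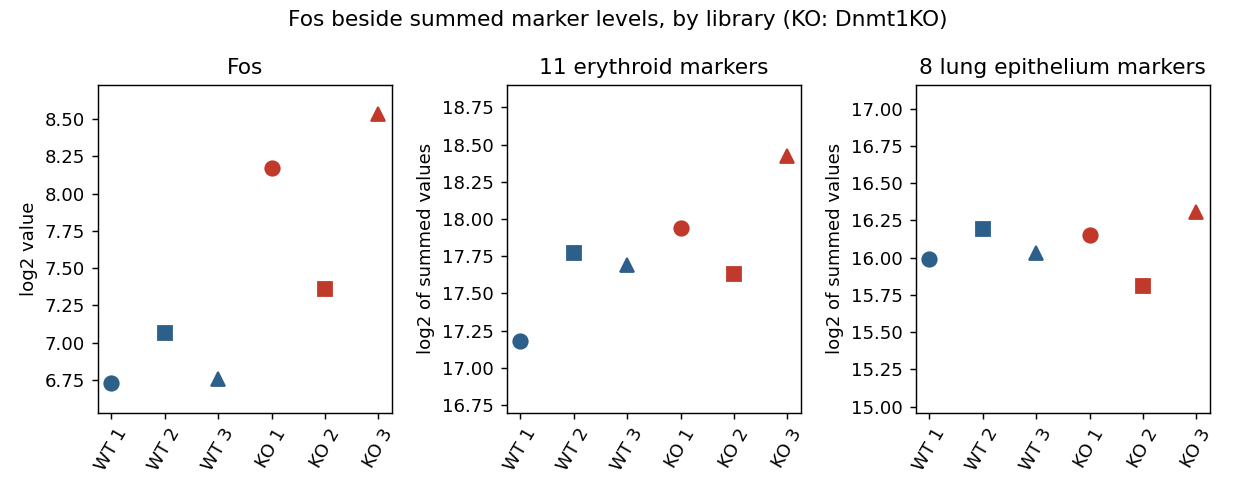
Log2 value of Fos, and log2 of the summed values of 11 erythroid and 8 lung epithelium markers (y axes, same span), in each WT (blue) and Dnmt1KO (red, labelled KO) library. Dnmt1KO replicate 3 is highest in all 3 panels, and the groups are apart only in the panel of Fos.

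The genes nearest in pattern to Fos and to the mean of the members were found by the root mean square difference between log2 profiles over the 6 libraries, each centred on its mean. For Fos alone they were Cbx7, a Polycomb protein gene (0.166), Hopx, a homeodomain gene of the lung epithelium (0.173), Rubcnl (0.193), Cytl1 (0.246) and Tmem30b (0.26), among 2020 genes with a spread large enough to compare. Cbx7 stood at 10.34, 9.32 and 10.40 in Dnmt1KO and at 9.05, 8.93 and 8.82 in WT, with the low Dnmt1KO value in replicate 2 as for Fos. None of these 5 passed limma's test (adjusted p from 0.0556 to 0.856). For the mean of the 9 members, whose SD over the libraries was 0.138 against 0.755 for Fos, they were Smim19 (0.0252), Ccdc39 (0.0408), Fancg (0.0415), Pla2g6 (0.0427) and Ccdc126 (0.0465). That mean is not a pattern shared by the members, which differed in direction, and Fos had the widest range among them (1.80). The profiles share the 6 libraries and their depths, and this likeness was not tested.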

How the data were processed

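RNA-seq was measured in 6 lung libraries, 3 per genotype, grouped by the titles in the labels. The authors deposited log2 values, 1 table per library, between 1 and 18.4. STAR, limma and mm9 are named in the submitters' processing notes, and the counter, annotation, filter and scaling were not given in the sources used here. Raising 2 to each value gave whole reads plus 0.5, times a constant per library, for 100% of genes within 1e-06 reads, which gave the depths. The lowest gene total was 60 reads, so lower genes are not analysed here.

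Symbols came from GENCODE M21 (GRCm38) by identifier, for 13967 of 14162 genes. The deposited values were fitted with limma 3.58.1 (R 4.3.3) with genotype as the only term, with trend and robust moderation and Benjamini-Hochberg adjustment over all genes, and was tested on simulated data. All members were named, with up to 4 genes of each other list by smallest p and the 5 nearest profiles. Genes beyond this rule were chosen after their values were seen. The members, lists and tests were chosen with earlier results of these data known. Alternatives were a replicate block, removal of the lowest 25% of genes, quantile normalization, median centring, scaling to read totals, an offset of 5 reads, moderation without trend or robust, sample weights, voom, and leaving out each library. Promoter sequences were RefSeq's on GRCm38.p6.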

Additional observations from a re-analysis of the deposited data

How the results depend on the processing

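The number of members called was 0 under all 15 alternatives, and the lowest adjusted p of any member was 0.271. Removing the lowest 25% of genes left 7 of the 9 members, without Fos and Atf3. Of 133 alternative values for the members, 127 kept their sign. The 6 that turned were Fosl2 with sample weights (0.00048), Jund without Dnmt1KO replicate 3 (-0.04) or WT replicate 3 (-0.077), and Dusp1 with sample weights (-0.0052), without Dnmt1KO replicate 1 (-0.012) or WT replicate 2 (-0.028). Among the 22 other genes named by rule, Maf (-0.0058) and Mafg (-0.035) turned without WT replicate 3, Nab2 with sample weights (0.078) and without WT replicate 1 (0.036), Cryab without Dnmt1KO replicate 2 (-0.046) and Dnaja1 with sample weights (0.049). The highest values as each library was left out were 0.14 for Jund, 0.096 for Dusp1, 0.26 for Maf, 0.17 for Mafg and 0.54 for Cryab, and the lowest for Nab2 was -0.17. The cause was not tested.

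Over all genes, 40 were called higher and 1 lower. With the replicate number as a block these were 26 and 0, and with the lowest 25% of genes left out 0 and 0, with 309 of 10622 at an unadjusted p under 0.05. Without trend or robust 0 were lower (32 higher), and with sample weights 12 were lower (57 higher). As each library was left out, 15 to 42 were higher and 0 to 17 lower. The smallest count of higher genes came without Dnmt1KO replicate 1, and the 17 lower genes without Dnmt1KO replicate 3. Deviations of same-numbered libraries from their group means correlated across genes at -0.00274, -0.18 and 0.306. For differently numbered libraries they ran from -0.373 (Dnmt1KO replicate 3 with WT replicate 1) to 0.379 (Dnmt1KO replicate 2 with WT replicate 1). The numbers were thus not taken to pair the samples, and the block changed no member's call. Fos, at 24 to 76 reads, had the widest counting interval of the members relative to its ratio, 1.83 to 3.23 times. Its limma interval, 1.29 to 3.94 times, was wider and also holds the spread between libraries.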
